A study of Sus scrofa with 15 samples.

Results

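The comparison set 4-cell pig embryos made by somatic cell nuclear transfer (SCNT) and treated with KDM4A plus GSK126 (SCNT4c-KG) against untreated SCNT embryos at the 8-cell stage (SCNT8c). Its members were 6 of the 15 RNA-seq libraries of the series, 3 per group, chosen by their group labels. Both groups were reconstructed from fetal fibroblast donor nuclei and each library pooled 30 embryos. SCNT4c-KG embryos received KDM4A mRNA by injection and were cultured with GSK126, whereas SCNT8c embryos received neither. The other groups, 3 libraries each, were untreated 4-cell embryos (SCNT4c), 4-cell embryos from donor cells with a doxycycline-inducible TDG vector, given doxycycline to induce TDG (SCNT4c-TDG) and the donor fibroblasts (PFF). The 2 groups differed in stage as well as in treatment, so that the effects of treatment and of an additional cleavage cannot be told apart here. The comparison asks which transcripts of treated 4-cell embryos exceeded, and which lagged behind, those of the untreated stage that follows.

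In the pig, the embryonic genome is switched on during the cleavage stages while RNA stored in the oocyte is degraded, a handover called the maternal-to-zygotic transition. In a reconstructed embryo the genome comes from a differentiated cell and carries its histone marks, among them H3K9me3 and H3K27me3, which are found at silent genes. KDM4A is a demethylase that removes H3K9me3, and GSK126 inhibits EZH2, the enzyme that writes H3K27me3.

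Depth differed between the groups. The 3 SCNT4c-KG libraries held 12354649 to 15390472 counted reads and the 3 SCNT8c libraries 18083559 to 19549670. Values are normalised read counts, read counts divided by a size factor for each library, and are not corrected for transcript length, so levels were compared between groups and not between genes. SCNT8c replicate 3 stood apart from its group: over 18942 features its Pearson r was 0.802 and 0.742 with SCNT8c replicates 1 and 2, which correlated with each other at 0.878, and its mean r with the SCNT4c libraries was 0.859. The mean r with the SCNT4c-KG libraries was 0.721, 0.683 and 0.674 for SCNT8c replicates 1, 2 and 3. Counts and lists are therefore also given without that library. Of 141 changed genes that the naming rule picked, 31 moved by over 1.5 times without it, 17 to a larger and 14 to a smaller difference. The labels conflict in part: the description of SCNT8c replicate 3 carries another number than its title, and the descriptions of the SCNT4c-KG samples name them as 4-cell embryos without the treatment. Samples were assigned by their titles. Nothing in the labels says that the pools came from separate cultures, so the p-values measure the spread between these pools, which may be technical.

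SCNT4c-KG and SCNT8c differed widely. Of 18942 tested features, 5335 changed (adjusted p below 0.05 in limma and more than 2-fold), a background of 28.2%. Of these, 3102 were higher in SCNT4c-KG, or 16.4% of the features tested, and 2233 were lower, or 11.8%. The values of the 3 SCNT4c-KG libraries did not overlap those of the 3 SCNT8c libraries in 6953 features, or 36.7%. By kind, 1776 genes with a symbol rose and 1380 fell of 9815 tested, 474 LOC entries rose and 281 fell of 2984, and 852 assembled transcripts rose and 572 fell of 6143. Without SCNT8c replicate 3 the count was 6424 of 18990 (33.8%), with 3698 higher (19.5%) and 2726 lower (14.4%). Of the 5335 features, 4670 also changed in the same direction without that library, which is 87.5% of the first set and 72.7% of the second. The median log2 difference over all features was 0.03, and it was -0.12 when all libraries were scaled to the same total and -0.15 after quantile normalization. Under these scalings 52.3% of changed features were higher in SCNT4c-KG, against 58.1%. On the recovered reads it was 51.4% with edgeR and 48.4% with DESeq2, where 3083 features were higher and 3284 lower.

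**Figure D1:**
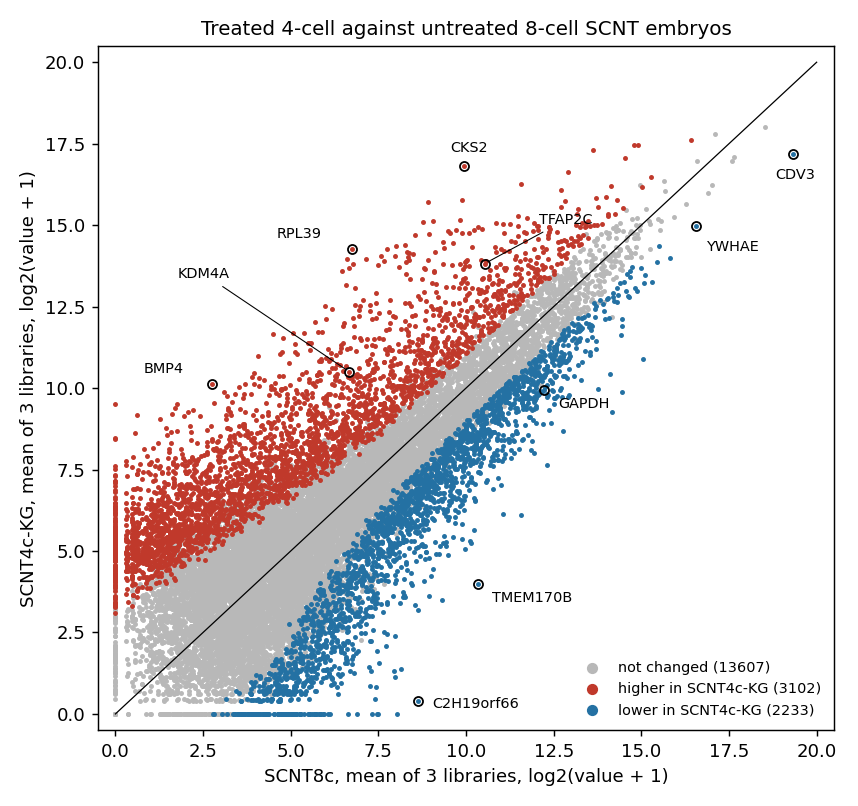
Mean level of each tested feature in SCNT8c (horizontal axis) and SCNT4c-KG (vertical axis), as log2(normalised read count + 1) over 3 libraries, with changed features in red (3102 higher) and blue (2233 lower), unchanged features in grey and the line of equal level. CKS2 and RPL39 lie far above the line and TMEM170B and C2H19orf66 far below it.

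The share of genes that rose was larger the shorter the transcript. Among the 12782 tested genes with an annotated transcript length, 55.7% of the 183 genes whose longest transcript reached at most 500 bases rose and 2.73% fell. The share that rose was 45.6% from 501 to 800 bases, 29.1% from 801 to 1200, 21.0% from 1201 to 2000, 16.8% from 2001 to 3000, 14.8% from 3001 to 5000 and 10.6% above 5000, where 13.2% fell. The median log2 difference went from 2.78 in the shortest class to -0.19 in the longest, and without SCNT8c replicate 3 from 2.91 to -0.12. In the shortest class the mean log2 level was 7.01 to 7.24 in the SCNT4c-KG libraries and 4.41 to 4.65 in the SCNT8c libraries, and it was 4.62 to 5.01 in SCNT4c and 5.60 to 5.90 in SCNT4c-TDG. Above 5000 bases it was 6.09 to 6.23 in SCNT4c-KG and 6.21 to 6.25 in SCNT8c. Transcript length thus moved with the difference between the groups, and its part in the results that follow was not tested. Among the 9247 genes above 2000 bases, 1250 rose and 1303 fell.

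**Figure D2:**
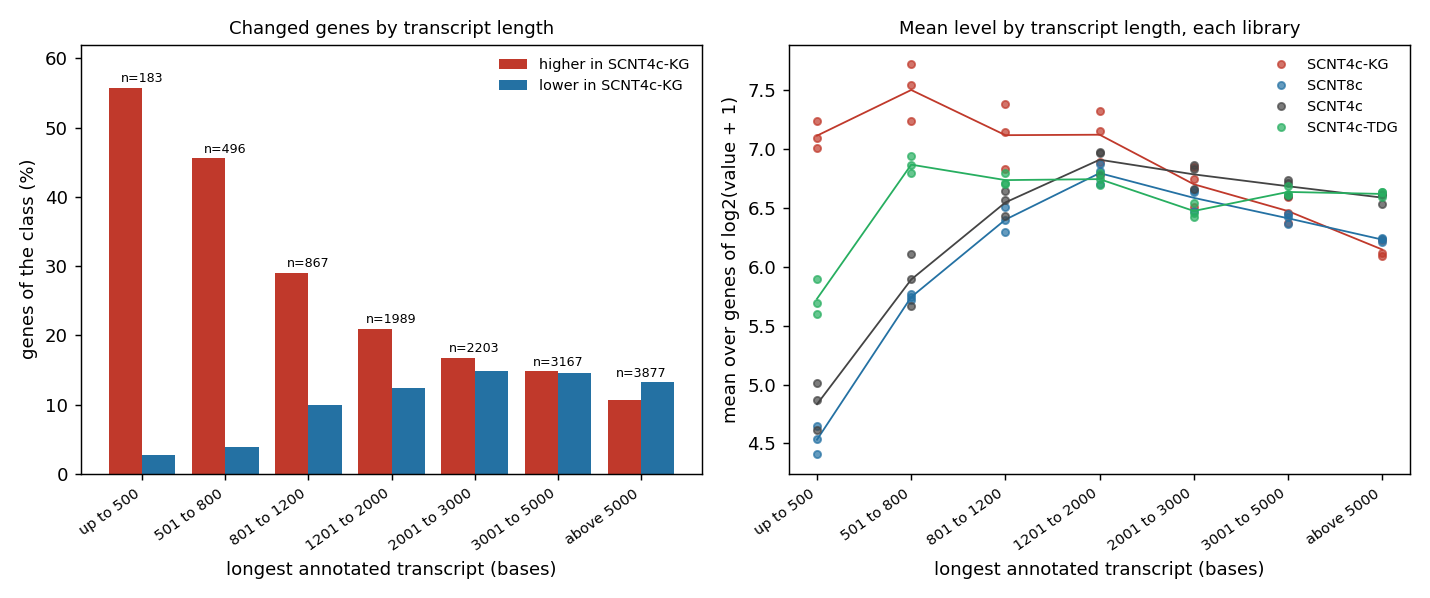
Left, percentage of tested genes that were higher (red) or lower (blue) in SCNT4c-KG than in SCNT8c by length of the longest annotated transcript, with the number of genes per class. Right, mean over the genes of each class of log2(normalised read count + 1), with each point a library and each line a group mean; the SCNT4c-KG libraries are highest in the classes up to 800 bases and the SCNT8c and SCNT4c libraries fall off there.

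Many genes shared their locus with a transcript assembled by the authors as a separate entry. Such a transcript lay over 16041 of 28224 known genes, so that reads of a gene could be counted in another entry. Of 2139 changed genes with one, 1514 still changed in the same direction when the entries were summed, 147 had the opposite sign and 27 were called in the opposite direction. The summed value or its test is given below for named genes where the sum differs from the gene's own by more than 0.5 on the log2 scale.

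KDM4A, the injected gene, was higher in SCNT4c-KG than in SCNT8c, and it was also high in groups that were not injected. KDM4A (chr6:167597954-167642381, minus strand of Sscrofa11.1) measured 1437.5, 1475.9 and 1429.2 in the SCNT4c-KG libraries and 162, 134 and 47.5 in the SCNT8c libraries. The groups did not overlap, and the log2 difference was 3.83 ± 0.48 (SE; adjusted p = 3.69e-05). It measured 852, 555 and 918 in SCNT4c-TDG, above SCNT8c by a log2 difference of 2.89 (adjusted p = 0.000437), 194 ± 103 (SD, n = 3) in SCNT4c and 5005 ± 126 in PFF. Injected and embryonic KDM4A mRNA cannot be told apart in these counts. EZH2, the target of GSK126, measured 915, 1026.6 and 1245.4 in SCNT4c-KG and 1035.3, 1036.6 and 375 in SCNT8c. It overlapped between the groups and did not pass the test (log2 difference 0.51 ± 0.38, adjusted p = 0.335). TDG, a DNA glycosylase that excises thymine and oxidised methylcytosine, measured 4474.2, 3885.8 and 4737.9 against 2340.4, 2052.5 and 2506.1. Its groups did not overlap, but the log2 difference of 0.92 ± 0.31 (adjusted p = 0.0350) was below the 2-fold limit.

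Genes that the study followed as embryonic activation genes were higher in treated 4-cell embryos in part. TFAP2C, an AP-2 transcription factor of the early embryo and trophectoderm, measured 15340.3, 17838.7 and 11131.6 in SCNT4c-KG and 1569.3, 1801.4 and 1158.0 in SCNT8c, a log2 difference of 3.29 ± 0.31 (adjusted p = 2.64e-06). SUPT4H1, a transcription elongation factor subunit, measured 13192.3, 14040.5 and 11385.2 against 5969.2, 4425.0 and 2680.4 (1.63 ± 0.29, adjusted p = 0.000694). Neither gene overlapped between the groups. KLF17, ZSCAN4, PNRC1 and UBTFL1 were under the minimum mean on their own entries, where KLF17 was at 0 in all 6 libraries. Nearly all reads over their loci lay in assembled transcripts, which were matched by position only, without their strand or exons.

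With these entries summed, KLF17, a Kruppel-like factor, measured 2411, 2385 and 2693 in SCNT4c-KG and 579.7, 277.7 and 222.9 in SCNT8c, a log2 difference of 2.91 ± 0.39 (adjusted p = 7.91e-05). The sum for PNRC1, a nuclear receptor coactivator, was 372, 341 and 306 against 122, 76.5 and 138 (1.63 ± 0.37, adjusted p = 0.00483). For ZSCAN4, a zinc finger gene of early genome activation, the sum was 252, 405 and 328 against 239, 140 and 90.9, and its log2 difference of 1.15 ± 0.53 did not pass the test (adjusted p = 0.126). The UBTFL1 sum of 6.53, 36.8 and 52.7 overlapped with 8.40, 4.99 and 7.40 (1.67 ± 0.88, adjusted p = 0.174). Thus the locus sums of KLF17 and PNRC1 exceeded the 8-cell level. Those of ZSCAN4 lay above the 8-cell range without passing the test, and those of UBTFL1 overlapped with it. Whether the assembled transcripts belong to these genes was not checked.

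Among the largest rises were regulators of development that were nearly absent at the 8-cell stage. BMP4, a secreted ligand of the TGF-beta family, measured 1226.8, 1123.1 and 1011.7 in SCNT4c-KG and 10.3, 3.33 and 5.28 in SCNT8c (log2 difference 7.37 ± 0.88, adjusted p = 2.54e-05; 6.82 summed). GATA6 (chr6:107282709-107314725), a transcription factor of the hypoblast, measured 276, 272 and 294 against 0, 1.66 and 1.06, a ratio of 301 with a 95% counting interval of 102 to 1463 on 3 SCNT8c reads. SNAI1, a zinc finger repressor of epithelial genes, measured 199, 223 and 180 against 0, 0.831 and 0, a ratio of 650 with an interval of 116 to 25719 on 1 SCNT8c read. These intervals cover counting error only, since amplified reads without molecular identifiers are not independent molecules. In the other groups of 4-cell embryos BMP4 stood at 23.9 ± 29.5 (SD, n = 3) in SCNT4c and 16.2 ± 7.17 in SCNT4c-TDG. GATA6 was at 0 in SCNT4c and at 347 ± 78.0 in SCNT4c-TDG, near its level in SCNT4c-KG.

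Other genes among the 12 largest rises had varied roles. PTRH2, a mitochondrial peptidyl-tRNA hydrolase, measured 466, 730 and 566 in SCNT4c-KG and 0, 2.49 and 0 in SCNT8c. SH2D1A, an adaptor of lymphocyte receptors, measured 214, 218 and 276 against 1.87, 0 and 0. UBQLNL, an ubiquilin-like gene, measured 172, 142 and 304 and was at 0 in every SCNT8c library, which made it at least 72.9-fold higher when the SCNT8c mean was set to 3 reads per library. PHF3, a PHD finger protein, measured 550, 338 and 452 against 2.80, 0 and 4.23 (log2 difference 7.34), and 5.29 with the assembled transcript at its locus. ZNF385D, a zinc finger gene, measured 219, 259 and 181 against 0, 0.831 and 0, but its locus sum of 253, 270 and 192 against 23.3, 29.1 and 83.5 gave 2.58 (adjusted p = 0.0122). The 2 ribosomal protein genes of this set, RPL39 and RPL38, are described below.

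A transfer RNA gene also stood in this set with 2 of its copies. TRNAH-GUG, the histidine tRNA, has 7 entries in the table, and the sequence of each was read from the genome to see whether the entries can be told apart. All 7 are 72 bases long and identical over their whole length, with the anticodon shown in capitals:
TRNAH-GUG: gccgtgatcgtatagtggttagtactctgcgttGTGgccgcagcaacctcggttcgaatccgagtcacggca
The entry at chr1:126541264-126541335 (minus strand) measured 361, 443 and 369 in SCNT4c-KG and 0, 0 and 2.11 in SCNT8c. The entry at chr7:21233980-21234051 (plus strand) measured 178, 164 and 137 and was at 0 in SCNT8c, at least 56.5-fold higher. The entries at chr4:99287551-99287622, chr4:99315449-99315520 and chr1:208060015-208060086 measured 75.5 to 171 in SCNT4c-KG and 0 in every SCNT8c library. The other 2 entries, both on chromosome 1, were at 0 throughout. Reads wholly inside these genes cannot be assigned to 1 copy by sequence. The paper states that uniquely mapped reads were used, so reads counted here would have to reach into the flanking sequence. This was not checked, and the split of the reads over the copies is uncertain.

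Of entries without a symbol, LOC100525679 (chr2:14814759-14815155) measured 688, 793 and 707, LOC100512726 (chr8:11199618-11200164) 341, 423 and 305, and the assembled transcript MSTRG.79737 on chromosome 8 361, 354 and 313 in SCNT4c-KG. All 3 were at 0 in every SCNT8c library and were at least 258-, 126- and 122-fold higher.

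The 5 genes that rose at the highest levels were CYTB, PTMA, RPS20, CKS2 and CDC26. CYTB and RPS20 are described below with the mitochondrial and ribosomal genes. CKS2, a small subunit of cyclin-dependent kinases, measured 129540.9, 117780.7 and 99597.3 in SCNT4c-KG and 1181.9, 1207.9 and 685 in SCNT8c (log2 difference 6.85 ± 0.26, adjusted p = 8.1e-10). CDC26, a subunit of the anaphase-promoting complex, measured 143275.5, 109939.4 and 66242.4 against 12918.6, 9820.1 and 3541.5 (3.73 ± 0.41, adjusted p = 1.12e-05). PTMA, the chromatin-associated acidic protein prothymosin alpha, measured 228502.4, 194517.3 and 135488.6 against 40199.1, 33986.9 and 20989.0 (2.57 ± 0.28, adjusted p = 9.34e-06). The rule that picked these genes required every SCNT4c-KG library to lie above every SCNT8c library. In CKS2, CDC26 and PTMA, SCNT8c replicate 3 was the lowest of its group. CKS2 was also high in SCNT4c-TDG, at 90327 ± 5414 (SD, n = 3), and low in SCNT4c, at 524 ± 57.9, whereas PTMA was at 10612 ± 603 in SCNT4c-TDG.

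**Figure D3:**
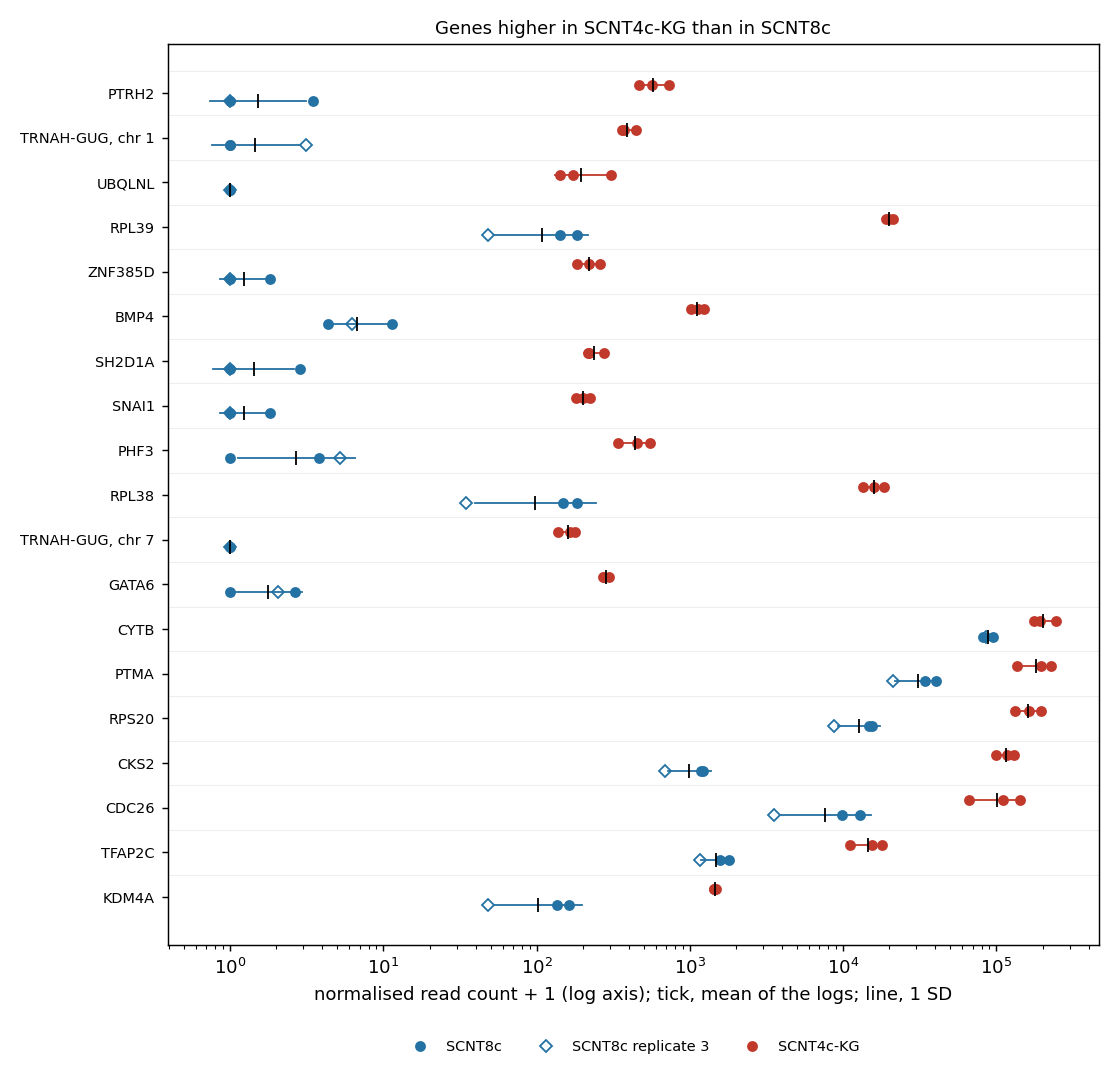
Normalised read count + 1 on a log axis for the 12 genes with the largest rises, the 5 rises at the highest levels, TFAP2C and KDM4A, with red points for the SCNT4c-KG libraries, blue points for the SCNT8c libraries (open diamond, replicate 3), ticks for the mean of the logs and lines for 1 SD. The red and blue points of a gene do not overlap, which was a condition of selection for all but TFAP2C and KDM4A. SCNT8c points at 1 are libraries with no read.

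Genes of cytosolic ribosomal proteins rose almost as a body. Of 84 genes, 75 passed the minimum mean, 62 rose (82.7%, against 16.4% of all features), none fell and 13 were not called. The median log2 difference of the 75 was 3.89, against 0.03 over all features. Without SCNT8c replicate 3, 62 rose, 1 fell and the median was 3.45. RPL39, a protein of the large subunit, measured 19839, 21063 and 18969 in SCNT4c-KG and 141, 181 and 47.5 in SCNT8c (log2 difference 7.53 ± 0.43, adjusted p = 2.46e-08). RPL38 measured 15798, 18469 and 13516 against 148, 182 and 33.8 (7.33 ± 0.52, and 6.58 without SCNT8c replicate 3). RPS29, of the small subunit, measured 12578, 13174 and 11324 against 148, 121 and 37.0 (7.13 ± 0.44, and 6.52 without it), and RPS20 195311, 163374 and 131601 against 15475, 14796 and 8751 (3.68 ± 0.27). RPS15A rose on its own entry, at 452, 457 and 465 against 2.80, 9.98 and 1.06, but with 2 assembled transcripts summed it measured 541, 579 and 553 against 484, 658 and 225 (log2 difference 0.42, adjusted p = 0.472).

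Ribosomal protein transcripts are short, so these genes were set beside others of their length. In the class up to 500 bases the median log2 difference was 5.61 for 15 ribosomal protein genes and 2.57 for the other 168 genes. From 501 to 800 bases it was 4.61 for 26 and 1.42 for 470, and from 801 to 1200 bases 2.32 for 18 and 0.59 for 849. The summed level of the 84 genes made up 7.61%, 8.51% and 7.31% of all normalised counts in SCNT4c-KG and 2.13%, 2.55% and 0.916% in SCNT8c. The groups did not overlap, with the smallest p that an exact 2-sided permutation test of 3 against 3 allows (0.1). The share was 0.913% ± 0.22 (SD, n = 3) in SCNT4c, 2.57% ± 0.15 in SCNT4c-TDG and 3.96% ± 0.34 in PFF. Ribosomal protein genes have many processed copies in the genome, and how reads were divided among such copies could not be checked in the table.

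**Figure D4:**
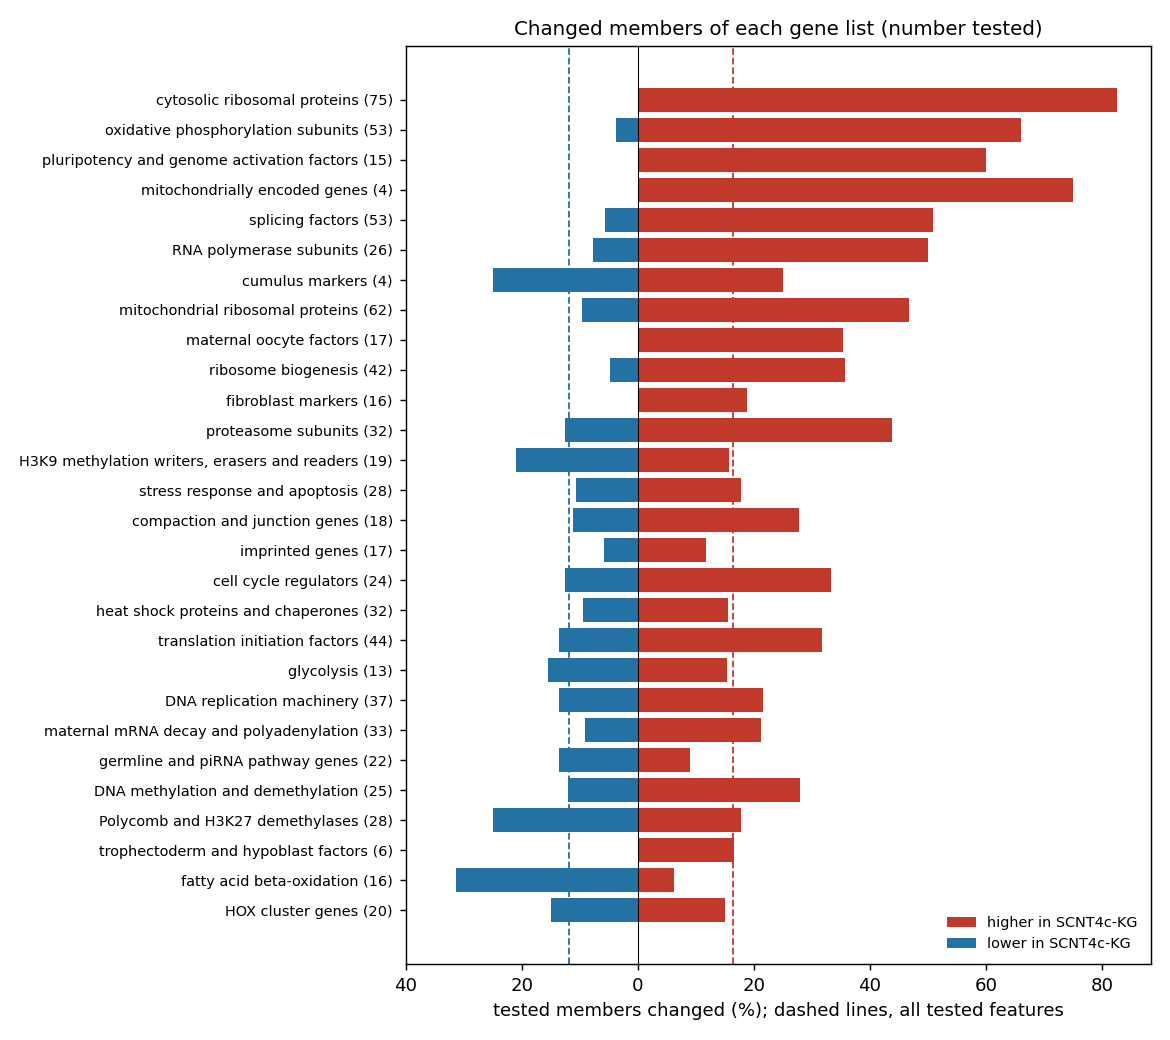
Percentage of tested members of each gene list that were higher (red, to the right) or lower (blue, to the left) in SCNT4c-KG than in SCNT8c, with the number tested in brackets, ordered by median log2 difference. Dashed lines mark the 16.4% and 11.8% of all tested features; cytosolic ribosomal proteins reach furthest to the right and fatty acid beta-oxidation furthest to the left.

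Genes of mitochondrial respiration moved in the same direction. Oxidative phosphorylation couples electron transport along complexes I to IV to ATP synthesis, and 35 of 53 tested subunit genes encoded in the nucleus rose and 2 fell (66% and 3.77%, against 16.4% and 11.8% of all features), with a median log2 difference of 2.52 (31 rose, 5 fell and 2.03 without SCNT8c replicate 3). COX5B, of complex IV, measured 24114, 23537 and 17617 in SCNT4c-KG and 447, 519 and 124 in SCNT8c (log2 difference 6.13 ± 0.46, adjusted p = 2.22e-07, and 5.48 without SCNT8c replicate 3). NDUFA11, of complex I, measured 5792, 7533 and 3766 against 77.5, 109 and 43.3 (6.24 ± 0.44), and the ATP synthase subunit ATP5B 12835, 14958 and 18234 against 2045, 2589 and 666 (3.32, and 2.72 without it). Cytochrome c, CYCS, measured 33121, 32662 and 30484 against 2838, 2983 and 2808 (3.48). The complex I core subunit gene NDUFV1 fell instead, with 1522, 1838 and 1047 against 5047, 6496 and 1759 (-1.43, adjusted p = 0.0252). ATP5L rose on its own entry by 4.26 and, with assembled transcripts summed, was lower by a log2 difference of -1.97. With such sums over the whole list, 36 of 66 tested subunit genes rose, 5 fell and the median was 1.70. The median transcript length of the list was 818 bases. Of genes other than cytosolic ribosomal protein genes, 42.8% rose above 500 and up to 800 bases. Above 800 and up to 1200 bases, 28.4% of them rose. The list was not set against genes matched for length.

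Mitochondrial ribosomal proteins were divided, with 29 of 62 tested genes higher, 6 lower (46.8% and 9.68%, against 16.4% and 11.8% of all features) and a median of 1.06 (27, 8 and 0.77 without SCNT8c replicate 3). MRPL20 measured 17408, 23110 and 12460 in SCNT4c-KG and 278, 214 and 261 in SCNT8c (6.09 ± 0.31, adjusted p = 1.1e-08), and MRPL16 6764, 5687 and 5570 against 135, 140 and 183 (5.30 ± 0.34). MRPL45 fell, with 238, 742 and 596 against 2540, 4710 and 1083 (-2.31). With assembled transcripts summed, 29 of 71 mitochondrial ribosomal protein genes rose, 8 fell and the median was 0.76. The median transcript length of this list was 1330 bases. Above 1200 and up to 2000 bases, 20.7% of genes other than cytosolic ribosomal protein genes rose. Of 13 protein genes of the mitochondrial genome, 4 passed the minimum and 3 rose (median 1.42), and with assembled transcripts summed 13 passed and 1 rose. The same assembled transcript was added to ND4 and to ND6, so these sums are not separate measurements. CYTB, of complex III, measured 245364, 177012 and 191017 against 82080, 95162 and 85858 (1.21 ± 0.23, adjusted p = 0.00121). ND4 and ND6 rose on their own entries and did not pass with the assembled transcript over them summed (adjusted p = 0.303 and 0.0890). The other 9 genes were at 0 on their own entries in every library, so they passed only through assembled transcripts.

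About as many genes of transcription and splicing rose as did not. Of 26 RNA polymerase subunit genes, 13 rose and 2 fell (50% higher and 7.69% lower, against 16.4% and 11.8% of all features; median 1.09, and 12, 5 and 0.78 without SCNT8c replicate 3). POLR2L, a small subunit shared by the nuclear polymerases, measured 17080, 18459 and 9550 in SCNT4c-KG and 137, 117 and 78.2 in SCNT8c (7.05 ± 0.40, adjusted p = 2.46e-08). POLR2A, the largest subunit of RNA polymerase II and a long transcript, measured 1411, 1416 and 788 against 48.5, 29.9 and 63.4 (4.66, adjusted p = 3.77e-06). POLR3K fell, with 7779, 7693 and 4446 against 18117, 17174 and 26783 (-1.66). Of 53 splicing factor genes, 27 rose and 3 fell (50.9% and 5.66%; median 1.11, and 24, 5 and 0.92 without that library). The core small nuclear ribonucleoprotein gene SNRPF measured 9533, 10676 and 7823 against 104, 116 and 68.7 (6.61 ± 0.40), and SNRPD1 30803, 33920 and 20901 against 953, 711 and 1832 (4.70 ± 0.33).

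Of 32 proteasome subunit genes, 14 rose and 4 fell (43.8% and 12.5%, against 16.4% and 11.8% of all features; median 0.52, and 12, 8 and 0.48 without SCNT8c replicate 3). PSMD7, of the regulatory particle, measured 1455, 1423 and 1066 against 16.8, 15.0 and 10.6 (6.45 ± 0.52), whereas PSMD5, an assembly chaperone, fell with 423, 470 and 497 against 3112, 3675 and 1854 (-2.58). Of 42 ribosome biogenesis genes, 15 rose and 2 fell (35.7% and 4.76%; median 0.67, and 15, 1 and 0.38). NHP2, of the small nucleolar ribonucleoproteins that pseudouridylate RNA, measured 5062, 5145 and 4145 against 429, 399 and 254 (3.76). Of 44 translation initiation factor genes, 14 rose and 6 fell (31.8% and 13.6%) with a median of 0.18, which was -0.22 without SCNT8c replicate 3, where 12 rose and 11 fell. EIF4A3 measured 12129, 14324 and 13476 against 2877, 2713 and 1450 (2.56), and EIF4G2, a relative of the scaffold of cap binding, 8257, 10113 and 18517 against 23564, 24099 and 26347 (-1.09).

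Of 34 genes listed for pluripotency and genome activation, 15 passed the minimum and 9 rose (60%, against 16.4% of all features). None fell and 6 were not called, with a median of 1.63, or 8, 0 and 1.32 without SCNT8c replicate 3. The list was not independent of the genes that the study followed as activation genes. It held KLF17, ZSCAN4, PNRC1 and UBTFL1, which were under the minimum on their own entries. LEUTX, a homeobox gene of early cleavage, measured 32794, 21747 and 24304 in SCNT4c-KG and 3285, 2468 and 2959 in SCNT8c (3.17, adjusted p = 1.92e-06). SOX2, a transcription factor of pluripotent cells, measured 399, 286 and 298 against 5.60, 13.3 and 8.45 (5.08 ± 0.81, adjusted p = 0.000307). NANOG measured 201, 199 and 212 against 29.9, 9.14 and 6.34 (3.96 ± 0.64, adjusted p = 0.000354). KLF4 measured 34.3, 60.9 and 101 and was at 0 in every SCNT8c library, at least 23.2-fold higher. All 4 were without overlap between the groups. POU5F1, which encodes OCT4, measured 157, 154 and 145 against 162, 164 and 243 and did not pass the test (adjusted p = 0.872). Summed with 11 assembled transcripts over its locus, it measured 1147, 713 and 762 against 386, 244 and 475 (1.27 ± 0.47, adjusted p = 0.0580), and 1.48 without SCNT8c replicate 3 (adjusted p = 0.0232).

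Factors of the trophectoderm and hypoblast, the first lineages set aside from the embryo proper, were few. Of 19 genes, 6 passed the minimum, GATA6 alone rose and none fell (16.7% higher, against 16.4% of all features; median -0.62, and -0.08 over 5 genes without SCNT8c replicate 3). With assembled transcripts summed 10 passed, 3 rose and 2 fell. The sum for ELF5, a trophectoderm transcription factor, measured 154, 124 and 191 against 823, 542 and 245 (-1.63 ± 0.56, adjusted p = 0.0417), and did not overlap. CDX2 was at 0 in SCNT4c-KG and at most 15.0 in SCNT8c, and GATA4 reached at most 39.3 and 8.40. Among 18 compaction and junction genes, 5 rose and 2 fell (27.8% higher, against 16.4% of all features, and a share of falls near the background; median 0.32, and 5, 2 and 0.24 without SCNT8c replicate 3). CDH1, the E-cadherin of cell adhesion, measured 629, 852 and 819 against 6.53, 7.48 and 14.8 (6.25 ± 0.45, adjusted p = 1.73e-07). Summed with the assembled transcript at its locus it measured 1054, 1574 and 1255 against 258, 355 and 65.5 (2.80, adjusted p = 0.00187, and 2.07 without SCNT8c replicate 3). CLDN7, a tight junction claudin, measured 14973, 16372 and 10195 against 298, 298 and 226 (5.64 ± 0.29), and CLDN6 5853, 4978 and 6387 against 1539, 1402 and 678 (2.33 ± 0.47). CTNNB1, the beta-catenin that binds E-cadherin, fell with 431, 542 and 718 against 948, 1032 and 2410 (-1.27, adjusted p = 0.0166), and F11R, a junctional adhesion molecule, fell by 1.16 on the log2 scale.

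Some maternal oocyte genes were higher in treated 4-cell embryos than at the 8-cell stage, and their number depended on SCNT8c replicate 3. Of 28 genes in the table, 17 passed the minimum, 6 rose (35.3%, against 16.4% of all features) and none fell (median 1.02), and without that library 10 rose (against 19.5% of all features), none fell and the median was 1.97. BTG4, an adaptor of maternal mRNA decay, measured 7428, 5485 and 4866 in SCNT4c-KG and 349, 127 and 2929 in SCNT8c (3.52 ± 0.78, adjusted p = 0.00356), and 4.78 without replicate 3, or 2.03 when summed (3.09 without replicate 3). DPPA3, which protects maternal methylation in the zygote, measured 22381, 22118 and 25536 against 3410, 1452 and 7308 (2.82 ± 0.42, adjusted p = 0.000160). OOEP, of the subcortical maternal complex, measured 2040, 1018 and 1159 against 144, 38.2 and 612 (3.15, adjusted p = 0.00368), and 4.15 without replicate 3. ZP3, of the zona pellucida, measured 872, 425 and 704 against 12.1, 2.49 and 15.8 (6.12 ± 0.72), and 3.75 with the assembled transcript at its locus. ZAR1L rose on its own entry and did not when summed (-0.45, adjusted p = 0.462). In untreated 4-cell embryos ZP3 stood at 28.1 ± 21.3 (SD, n = 3) and DPPA3 at 4897 ± 1167, and SCNT4c-KG was above them by a log2 difference of 4.74 (adjusted p = 0.000158) and 2.28 (adjusted p = 0.000672). BTG4 stood at 1529 ± 122 and OOEP at 708 ± 133 there, and their differences from SCNT4c-KG did not pass the test (adjusted p = 0.0626 and 0.304). These values are of the genes' own entries. Summed with its assembled transcript, ZP3 stood at 96.3 ± 33.1 in SCNT4c and 677 ± 218 in SCNT4c-KG, and BTG4 at 4561 ± 574 and 6169 ± 1348.

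The oocyte linker histone gene H1FOO measured 111397, 96013 and 43449 against 25684, 12972 and 98583, and the oocyte kinase gene WEE2 19970, 14450 and 21262 against 14025, 9102 and 51665. In both, SCNT8c replicate 3 lay within or above the SCNT4c-KG range and the other SCNT8c libraries below it. H1FOO did not pass with all libraries (1.27, adjusted p = 0.0901) and passed without replicate 3 (2.09, adjusted p = 0.000486). The summed level of the 28 genes was 1.34%, 1.05% and 0.997% of all counts in SCNT4c-KG and 0.745%, 0.499% and 1.64% in SCNT8c (exact permutation p = 0.6), against 2.38% ± 0.09 (SD, n = 3) in SCNT4c. In pooled embryos, fewer cells and less RNA per cell cannot be told apart.

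The largest falls were of transcripts nearly absent from treated embryos. C2H19orf66, the porcine form of an antiviral gene, measured 0, 1.27 and 0 in SCNT4c-KG and 559, 811 and 136 in SCNT8c, a ratio of 1111 with a 95% counting interval of 199 to 43927 on 1 SCNT4c-KG read. NRN1, the neuronal surface protein neuritin, was at 0 in SCNT4c-KG and measured 302, 562 and 30.6 in SCNT8c, at least 68.9-fold lower. PKIA, an inhibitor of protein kinase A, was at 0 against 48.5, 461 and 179, at least 53.0-fold lower. NADSYN1, which makes NAD, was at 0 against 163, 417 and 23.2, at least 46.5-fold lower. NCF4, a subunit of the phagocyte oxidase, was at 0 against 85.0, 193 and 57.1, at least 25.8-fold lower. All 5 were highest in SCNT8c replicate 2, and 4 of them, all but PKIA, were lowest in replicate 3. Without replicate 2 the bounds were 38.4 for NRN1, 26.3 for PKIA, 21.5 for NADSYN1 and 16.4 for NCF4.

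The other genes among the 12 largest falls were measured in both groups. TMEM170B, a membrane protein gene, measured 42.5, 2.54 and 25.6 in SCNT4c-KG and 1159.5, 2212.9 and 825 in SCNT8c (-6.33 ± 0.70, adjusted p = 1.27e-05). MAP2K6, a kinase that activates p38, measured 0, 0 and 14.2 against 221, 471 and 138 (log2 difference -6.62, adjusted p = 0.000194). PPIC, a cyclophilin, measured 0, 16.5 and 0 against 222, 845 and 122, and VPREB3, a pre-B-cell receptor partner, 9.80, 0 and 0 against 463, 609 and 56.0. NEFM, a neurofilament protein, SFXN3, a mitochondrial serine transporter family member, and FPGT, of fucose metabolism, had 1 to 3 reads in all SCNT4c-KG libraries and 48.6 or more in every SCNT8c library. Of entries without a symbol, LOC102162715 (chr9:10567270-10600780) measured 227, 186 and 132 in SCNT8c and 0 in SCNT4c-KG, at least 42.0-fold lower. MSTRG.123124 and MSTRG.16869 were also at 0 in SCNT4c-KG, at least 101- and 24.8-fold lower, or 53.9- and 14.2-fold without SCNT8c replicate 2. All 12 genes were also lower in SCNT4c-KG than in untreated 4-cell embryos, and 11 of these differences passed the test. That of VPREB3 did not (log2 -1.22, adjusted p = 0.496). In SCNT4c, C2H19orf66 stood at 83.2 ± 20.7 (SD, n = 3), NRN1 at 62.4 ± 33.6, PKIA at 114 ± 106 and PPIC at 136 ± 48.2, and their differences from SCNT4c-KG passed the test (log2 -5.98, -5.83, -6.44 and -5.66). In the donor fibroblasts PKIA stood at 7293 ± 67.2, PPIC at 4337 ± 383 and SFXN3 at 2758 ± 146.

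At high levels, CDV3 was the main transcript that lagged. This carnitine-deficiency-associated gene measured 165968, 119632 and 164442 in SCNT4c-KG and 895124, 711947 and 458034 in SCNT8c (-2.16 ± 0.31, adjusted p = 0.000133). YWHAE, a 14-3-3 adaptor, measured 35589, 38960 and 24707 against 144015, 141537 and 43874 (-1.57 ± 0.39, adjusted p = 0.00688), and -2.14 without SCNT8c replicate 3. IGF2BP3, which binds and stabilises mRNA, measured 17874, 13462 and 14221 against 46667, 25315 and 77584 (-1.58 ± 0.33), and RIDA, a deaminase, 8883, 7727 and 7879 against 25664, 14199 and 74700 (-1.88 ± 0.43). For these last 2 genes SCNT8c replicate 3 was the highest of its group, and without it the differences were -1.19 and -1.23. CDV3 stood at 233330 ± 113029 (SD, n = 3) in SCNT4c and 55753 ± 2721 in SCNT4c-TDG.

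**Figure D5:**
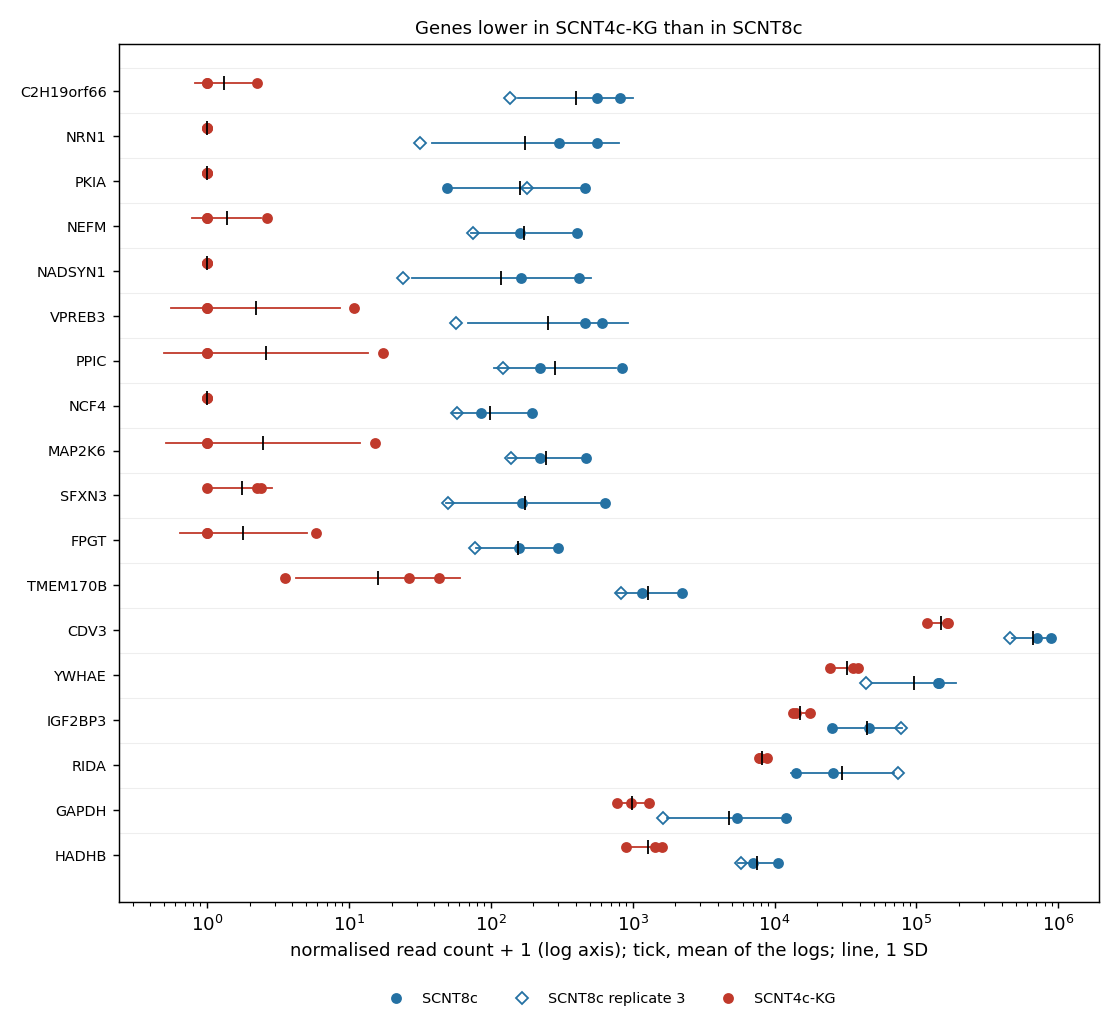
Normalised read count + 1 on a log axis for the 12 genes with the largest falls, CDV3, YWHAE, IGF2BP3, RIDA, GAPDH and HADHB, with red points for the SCNT4c-KG libraries, blue points for the SCNT8c libraries (open diamond, replicate 3), ticks for the mean of the logs and lines for 1 SD. Red points at 1 are libraries with no read, and SCNT8c replicate 3 is often the lowest blue point.

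Fatty acid beta-oxidation, which shortens fatty acids in mitochondria and peroxisomes, was the list with the largest share of falls. Of 16 tested genes, 5 fell and 1 rose (31.3% lower, against 11.8% of all features; median -0.98), and 7 fell and 1 rose without SCNT8c replicate 3. HADHB, of the trifunctional protein, measured 902, 1430 and 1602 in SCNT4c-KG and 6996, 10499 and 5811 in SCNT8c (-2.56 ± 0.31, adjusted p = 2.78e-05). ACADS, the short-chain dehydrogenase, measured 26.1, 140 and 8.55 against 1240, 2376 and 342 (-4.92 ± 0.84, and -5.69 without SCNT8c replicate 3), and ACAA1, a peroxisomal thiolase, 327, 406 and 278 against 3192, 4258 and 1390 (adjusted p = 0.000150), with a log2 difference of -1.86 when summed. The medium-chain dehydrogenase ACADM went the other way, with 843, 1280 and 1315 against 15.9, 11.6 and 9.51 (6.43 ± 0.55, adjusted p = 8.72e-07). Of 13 glycolysis genes, 2 rose and 2 fell (15.4% each, against 16.4% and 11.8% of all features). Their median was 0.16, and -0.52 without that library. GAPDH, used widely as a reference gene, measured 970, 778 and 1294 against 5479, 12122 and 1649 (-2.27 ± 0.53, adjusted p = 0.00484), and -3.04 without SCNT8c replicate 3. LDHA, lactate dehydrogenase, measured 101, 104 and 99.7 against 8.40, 4.16 and 8.45 (3.74 ± 0.76, adjusted p = 0.00185). PGK1 rose on its own entry, and its sum with the assembled transcript, which held nearly all reads, did not pass (0.02, adjusted p = 0.979).

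Chromatin regulators rose in shares near that of all features. Of 19 genes that write, erase or read H3K9 methylation, 3 rose and 4 fell (15.8% and 21.1%, against 16.4% and 11.8% of all features; median 0.46, and 4, 2 and 0.27 without SCNT8c replicate 3). Besides KDM4A, the demethylase gene KDM3A rose with 194, 192 and 288 against 31.7, 1.66 and 27.5 (4.03 ± 0.86, and 2.91 summed). The methyltransferase gene SETDB2 fell with 71.9, 107 and 127 against 648, 544 and 302 (-2.25 ± 0.40). Of 28 Polycomb and H3K27 demethylase genes, 5 rose and 7 fell (17.9% and 25%; median -0.02, and 6, 8 and -0.30). SUZ12, a core partner of EZH2, measured 582, 706 and 745 against 6100, 7833 and 1406 (-2.59, adjusted p = 0.000999, and -3.36 without SCNT8c replicate 3), and CBX6, a reader of H3K27me3, 211, 350 and 272 against 4738, 7032 and 1530 (-3.76 ± 0.58, and -4.40 without SCNT8c replicate 3). RNF2, the ubiquitin ligase of the other Polycomb complex, measured 1237, 1137 and 1207 against 3774, 3309 and 7580 (-1.93).

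Of 25 genes of DNA methylation and its removal, 7 rose and 3 fell (28% and 12%, against 16.4% and 11.8% of all features; median -0.02, and 8, 2 and -0.22 without SCNT8c replicate 3). DNMT1, the maintenance methyltransferase, measured 310, 367 and 192 against 5.60, 5.82 and 6.34 (5.34 ± 0.75, adjusted p = 0.000101). Its sum with the assembled transcript was 769, 788 and 504 against 31.7, 34.1 and 151 (3.59, adjusted p = 0.000155, and 4.32 without SCNT8c replicate 3). MBD4, a thymine glycosylase, measured 234, 288 and 342 against 26.1, 24.1 and 9.51 (3.89 ± 0.58). NEIL2, another glycosylase, fell with 29.4, 16.5 and 0 against 39.2, 171 and 211 (-3.81 ± 1.14, adjusted p = 0.0212), and did not pass without SCNT8c replicate 3 (-3.36, adjusted p = 0.0527). Of 20 HOX genes, 3 rose and 3 fell (15% each), with a median of -1.19 (4, 5 and -1.25 without that library). This median was 1.69 at a minimum mean of 50 and 0.07 without SCNT4c-KG replicate 3, so its direction is not fixed. HOXC5 was at 0 in SCNT4c-KG against 112, 15.8 and 48.6, and HOXA4 measured 68.6, 55.8 and 99.7 against 5.60, 1.66 and 14.8 (3.50 ± 0.84, and 4.13 without SCNT8c replicate 3). Of 17 imprinted genes, 2 rose and 1 fell (11.8% and 5.88%; median 0.31, and 2, 2 and 0.13). Both that rose lie in the same cluster on chromosome 2. CDKN1C, a kinase inhibitor that restrains growth, measured 2733, 4061 and 2316 against 31.7, 26.6 and 22.2 (6.74 ± 0.72, adjusted p = 9.3e-06), and PHLDA2, a growth regulator of the placenta, 140, 90.1 and 177 against 0, 3.33 and 4.23 (5.54 ± 0.73). Of 22 germline and piRNA genes, 2 rose and 3 fell (9.09% and 13.6%, against 16.4% and 11.8% of all features; median 0.04, and 6, 2 and 0.49). SYCP3, of the meiotic chromosome axis, measured 13254, 17982 and 15754 against 1521, 779 and 932 (3.91 ± 0.54). TDRKH, a Tudor protein of piRNA maturation, fell with 436, 808 and 600 against 3114, 2528 and 1651 (-1.98 ± 0.35, adjusted p = 0.000729). DAZL, a germ cell RNA-binding protein, fell with 289, 294 and 343 against 1483, 398 and 5895 (-2.30 ± 0.74, adjusted p = 0.0295), and did not pass without SCNT8c replicate 3 (-1.32, adjusted p = 0.0926).

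Of 24 cell cycle regulators, 8 rose and 3 fell, or 33.3% and 12.5% against 16.4% and 11.8% of all features. The median of 0.27 was -0.09 without SCNT8c replicate 3, where 9 rose and 4 fell. CCNA2, cyclin A2, measured 2003, 1986 and 2645 in SCNT4c-KG and 36.4, 15.8 and 30.6 in SCNT8c (6.34 ± 0.40, adjusted p = 5.07e-08), and CCNE1, cyclin E1, 704, 745 and 792 against 90.6, 129 and 171 (2.56). CDKN2B, an inhibitor of cyclin D kinases, fell with 487, 411 and 541 against 3802, 2673 and 9874 (-3.28, adjusted p = 3.8e-05). Of 37 replication genes, 8 rose and 5 fell (21.6% and 13.5%; median 0.15, and 8, 9 and 0.01 without that library). ORC1, of the origin recognition complex, measured 312, 464 and 231 against 12.1, 4.16 and 16.9 (4.92 ± 0.60, and 3.53 summed), and TYMS, which makes thymidylate, fell with 848, 1071 and 1036 against 4330, 4668 and 14132 (-2.75 ± 0.37).

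Of 33 genes of maternal mRNA decay and polyadenylation, 7 rose and 3 fell (21.2% and 9.09%, against 16.4% and 11.8% of all features; median 0.13, and 9, 3 and 0.46 without SCNT8c replicate 3). CNOT7, a deadenylase, measured 10035, 10575 and 9809 against 1446, 1328 and 4035 (2.36, adjusted p = 0.000221), and DDX6, a helicase that represses mRNA, fell with 1078, 1297 and 1748 against 5600, 5118 and 2852 (-1.69). PARN, CNOT8 and CNOT11 rose on their own entries and did not pass with assembled transcripts summed (adjusted p = 0.949, 0.840 and 0.891), although without SCNT8c replicate 3 the CNOT11 sum was lower in SCNT4c-KG (-2.72, adjusted p = 0.00633). Of 32 chaperone genes, 5 rose and 3 fell (15.6% and 9.38%; median 0.18, and 5, 6 and -0.21 without that library). DNAJB1 measured 39088, 33675 and 24962 against 4802, 4396 and 3514 (2.93 ± 0.28, adjusted p = 2.43e-06), and CCT4, of the cytosolic chaperonin, fell with 730, 1029 and 1513 against 5954, 7922 and 2514 (-2.23). Of 28 stress response and apoptosis genes, 5 rose and 3 fell (17.9% and 10.7%; median 0.36, and 4, 5 and 0.07). SOD1, superoxide dismutase, measured 4110, 2952 and 2326 against 98.0, 155 and 88.7 (4.77 ± 0.38, adjusted p = 4.01e-07, and 4.11 summed), and PMAIP1, which promotes apoptosis, fell with 261, 421 and 418 against 1004, 2172 and 748 (-1.71).

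Markers of other cell types were low in both groups. The 22 fibroblast markers of the donor cell summed to 3548 to 7815 in SCNT4c-KG and 3612 to 5283 in SCNT8c (exact permutation p = 0.7), or 0.03% of the counts in each group, against 17.5% ± 0.35 (SD, n = 3) in PFF. Of 16 tested, 3 rose and none fell (18.8% higher, against 16.4% of all features; median 0.64, and 5, 2 and 0.70 without SCNT8c replicate 3, or a median of 0.07 with assembled transcripts summed), and 6 and 4 of the 22 were at 0 in all libraries of SCNT4c-KG and SCNT8c. S100A4, a calcium-binding protein, measured 273, 161 and 188 against 0, 3.33 and 0 (6.96 ± 0.76), and THY1, a surface glycoprotein, 843, 428 and 829 against 191, 130 and 186 (2.00 ± 0.47), while COL1A1, the main fibroblast collagen, measured 420, 265 and 199 against 293, 214 and 311 (adjusted p = 0.932). The 13 cumulus markers of the cells that surround the oocyte summed to 949 to 1204 in SCNT4c-KG and 1438 to 1951 in SCNT8c (exact permutation p = 0.1, the smallest possible). Most of these sums came from INHBA, with 663, 709 and 647 against 1257, 1389 and 1815 on 1 of 2 entries of that symbol. This entry, at chr12:53115379-53117128, is not annotated as protein coding, and the other entry was not counted. The sums and the marker that fell thus rest on an entry that may not be the intact gene. The other 12 markers summed to 286, 495 and 443 against 207, 49.0 and 136, higher in SCNT4c-KG without overlap. PTX3, AMH and FOXL2 were at 0 in all 6 libraries, and of 4 tested markers 1 rose and 1 fell (median 1.08). This median was -0.16 with assembled transcripts summed, where the marker that rose, STAR, did not pass (-0.24, adjusted p = 0.721).

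Set beside the other groups, the differences came from different sides. CKS2 had a log2 difference of 7.78 between SCNT4c-KG and SCNT4c and of 0.93 between SCNT8c and SCNT4c, and RPL39 of 7.84 and 0.31. BMP4 differed by 6.33 and -1.04. CDH1 differed by 5.09 and -1.16 on its own entry, and by 3.47 and 0.67 with the assembled transcript summed. CDV3 differed by -0.55 and 1.61, and YWHAE by 0.15 and 1.72. HADHB differed by -2.54 and 0.02, and IGF2BP3 by -2.15 and -0.56. For CKS2, RPL39, BMP4 and CDH1 the 8-cell level lay nearer to that of untreated 4-cell embryos and the treated level above both, for CDV3 and YWHAE the treated level lay nearer to that of untreated 4-cell embryos, and for HADHB and IGF2BP3 it lay below both. The comparisons share libraries and are given as values side by side.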

How the data were processed

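RNA-seq was compared between 3 SCNT4c-KG and 3 SCNT8c libraries, each of cDNA amplified from pooled embryos. The authors used Trimmomatic 0.39, STAR 2.5.3a, StringTie 2.1.2, HTSeq and DESeq2 with Sscrofa11.1, per the submitters' processing notes. The deposited table holds a signal, read counts divided by a size factor per library, for 43294 distinct features after removal of 241 repeated entries. Values were whole reads within 0.02 of a read for 100% of values. The comparison, genes and lists were chosen with earlier results of these data known.

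Values were tested as log2(value + 1) with limma 3.58.1 (trended variance) over the 12 embryo libraries, for features with a mean of at least 10, with Benjamini-Hochberg adjustment; a fold change on this scale understates that of low genes. Changed means adjusted p below 0.05 and a change above 2-fold. Named are the study's own genes, the 12 largest rises and falls and the 5 at the highest level each way among genes with a symbol, a group mean reaching 100 on the higher side, no overlap and a call that holds without SCNT8c replicate 3, up to 4 members of each of 28 lists, and up to 3 entries without a symbol each way. Some genes that this rule names are not reported here. Further list members were named after their values were seen. A group at 0 was set to 3 reads per library for a bound. Alternatives used edgeR 4.0.16 and DESeq2 1.42.0 on the recovered reads, other pseudocounts, filters and scalings, and each library left out. The limma fit was also run on simulated counts, and no result of that run is used here.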

Additional observations from a re-analysis of the deposited data

How the results depend on the processing

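The count of 5335 changed features was 4852 with edgeR and 6367 with DESeq2 on the recovered reads, and 3379 (1135 lower) when the 2 groups were fitted alone. It was 2553 for genes with transcripts above 2000 bases, where fewer features were tested. Of all genes of that length 13.5% rose and 14.1% fell, and 145 of 421 list members changed. Over all lengths 364 of 774 list members changed, against 28.2% of all features. Same-numbered libraries did not deviate together (r = -0.0611, 0.0377 and -0.0104), so the numbers pair nothing; with a replicate block in the fit of 2 groups, 2818 features changed, 1850 higher and 968 lower. Leaving out each library gave 4239 to 6424 changed features. Of changed features 58.1% were higher, and 66.4% in the fit of 2 groups. The mean r between SCNT4c-KG and SCNT8c libraries was 0.693, and 0.779 with a pseudocount of 10. The share of maternal transcripts differed by -0.0651 to 0.507 percentage points when each library was left out, the lowest without SCNT8c replicate 2 and the highest without replicate 3. The HOX median of -1.19 was 1.69 at a minimum mean of 50 and -1.35 to 0.0716 when each library was left out, the highest without SCNT4c-KG replicate 3. With assembled transcripts summed, an alternative chosen after seeing the data, the cumulus median was -0.16 over the same markers, and ZAR1L (-0.45), STAR (-0.24), PARN (-0.065), CNOT11 (-0.31) and CBX8 (-1.03) were lower in SCNT4c-KG without passing the test; the cause was not tested. Of 143 named genes with a test, 113 kept their direction and side of the threshold under every alternative run.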
